A study of Homo sapiens with 27 samples.

Results

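The measurements described here concern the EGF family ligands and their receptors in MDA-MB-231, a line of human breast cancer cells. The genes were EREG, AREG, HBEGF, TGFA, BTC and NRG1 for the ligands and EGFR, ERBB2 and ERBB3 for the receptors. They were found by taking every array probe set, a group of short probes read as 1 value, whose platform annotation named only 1 of these genes. Of the 9 genes, 8 had such a probe set, of 11963 genes so named on the array. These were 24 of the 22215 probe sets that were not controls, 14 for 5 ligand genes and 10 for 3 receptor genes. EREG and BTC had 1 probe set each, HBEGF and TGFA 3 each, NRG1 and EGFR 6 each, and ERBB2 and ERBB3 2 each. No probe set named AREG alone in the annotation used here, and AREG levels were not analysed here. No probe set named 1 of these genes together with another gene.

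Cells were treated with 5SGlcNAc at 50 µM, which inhibits O-GlcNAc transferase (OGT), the enzyme that adds the sugar O-GlcNAc to nuclear and cytoplasmic proteins, with Thiamet-G at 25 µM, which inhibits O-GlcNAcase (OGA), the enzyme that removes it, or with DMSO, the vehicle. Total RNA was measured on 27 Affymetrix arrays. At 48 h there were 3 arrays per treatment, 9 in all, and the times of 0, 2, 4, 6, 8 and 24 h had a single array for each treatment, 18 in all. All arrays were of the same line grown in medium with serum, and the labels name no genetic change. The inhibitors were used at different doses, so that a difference between them is one between the compounds, each at its own dose.

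EGF family ligands are made as membrane-anchored precursors that metalloproteases of the ADAM family cut loose. EREG (epiregulin), AREG (amphiregulin), HBEGF (heparin-binding EGF-like growth factor), TGFA (transforming growth factor alpha) and BTC (betacellulin) bind EGFR, some of them ERBB4 too, and NRG1 (neuregulin) binds ERBB3 and ERBB4. The receptors pair on ligand binding and signal through RAS to ERK and through PI3K to AKT, and ERK activity in turn induces transcripts of several of the ligands and of inhibitors of the pathway. MDA-MB-231 cells are known for high EGFR and for lacking oestrogen and progesterone receptors and ERBB2 amplification.

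The sequences just upstream of EREG and HBEGF are shown because their probe sets differed between the inhibitors in opposite directions at 48 h. Each is the 250 bases before the annotated gene start, 5′ to 3′ on the transcribed strand, from RefSeq on build GRCh38.p14. The EREG window lies at chr4:74364895-74365144 on the plus strand and the HBEGF window at chr5:140346604-140346853 on the minus strand. Capitals mark the TATA box TATAAA in EREG and the GC box GGGCGG, on either strand, in HBEGF.
EREG: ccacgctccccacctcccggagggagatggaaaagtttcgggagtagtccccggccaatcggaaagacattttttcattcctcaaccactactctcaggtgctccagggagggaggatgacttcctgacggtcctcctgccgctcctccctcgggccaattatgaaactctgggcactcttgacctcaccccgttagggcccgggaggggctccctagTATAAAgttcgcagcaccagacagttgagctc
HBEGF: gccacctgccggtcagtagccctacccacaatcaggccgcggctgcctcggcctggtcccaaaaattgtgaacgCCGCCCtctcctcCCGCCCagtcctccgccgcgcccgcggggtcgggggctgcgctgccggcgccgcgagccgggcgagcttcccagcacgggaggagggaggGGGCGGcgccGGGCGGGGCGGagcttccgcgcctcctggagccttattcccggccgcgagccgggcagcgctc
The EREG window held 1 TATA box, its last base 27 bases before the start, and no GC box, with a GC content of 58%. The HBEGF window held 5 GC boxes and no TATA box, with a GC content of 76.4%, and its last 2 GC boxes share a base. Of 35116 promoters in the table, 10.7% held TATAAA and 42.6% held GGGCGG in a window of this length, on either strand. The search also covered the AP-1 site TGANTCA, held by 6.57% of promoters, the cAMP response element TGACGTCA, held by 1.65%, and the core of the antioxidant response element, TGACNNNGC, held by 10.9%. None of these 3 was found in the EREG or HBEGF window. The AREG window held 1 TATA box, 1 GC box and 1 cAMP response element. The ERBB2 window held 1 AP-1 site, and the second of the 2 EGFR windows held 2 AP-1 sites and 2 TATA boxes. These matches are descriptions of letters, and binding was not measured. EREG, AREG and BTC lie on chromosome 4 in that order, with EPGN (epigen), another EGFR ligand, before EREG.

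The values are log2 levels made with RMA, a method that subtracts a modelled background, equalises the arrays and summarises each probe set. The deposited values of 48 h and of 0 to 24 h differed in precision and in array medians, which were 7.68 to 7.76 and 7.43 to 7.53, so levels of one set were never compared with levels of the other. Differences were tested with limma across all 22215 probe sets, and a probe set passed at a Benjamini-Hochberg adjusted p under 0.05. The number of arrays limits the precision. Whether the 48 h arrays came from separate cultures is not said in the labels. The p-values therefore rest on the spread between arrays, which may be technical. All 6 basal and mesenchymal markers of this line lay between percentiles 97.4 and 99.9 of levels at 48 h. The 7 luminal markers were spread, with PGR at 5.41, CDH1 at 30.8, ESR1 at 42.8, EPCAM at 70.9 and GATA3 at 72.1. The luminal markers KRT8 and KRT19 were bright, at percentiles 95.7 and 91.4. The 6 fibroblast markers lay between percentiles 15.5 and 68.3. The 5 haematopoietic markers measured lay between 6.72 for PTPRC and 36.2 for ITGAM. Of the 24 probe sets, 11 lay under the 40th percentile at 48 h, among them the BTC probe set and both ERBB3 probe sets. RMA gives a value even where nothing binds, and no detection call was used, so differences in these 11 are differences between dim values.

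At 48 h, of the 3 HBEGF probe sets, 2 were higher after 5SGlcNAc than after Thiamet-G and 1 of these passed against DMSO. The EREG probe set was lower after 5SGlcNAc than after Thiamet-G. Of the 6 NRG1 probe sets, 1 was higher after Thiamet-G than after 5SGlcNAc or DMSO. Against DMSO, 1 of the 24 probe sets passed for 5SGlcNAc, an HBEGF probe set that was higher, which is 4.17% of them beside 6.7% of all probe sets. For Thiamet-G against DMSO 1 passed, an NRG1 probe set that was higher, which is 4.17% of them beside 1.67% of all probe sets. For 5SGlcNAc against Thiamet-G 4 passed, 2 of HBEGF higher and 1 each of EREG and NRG1 lower, which is 16.7% of them beside 8.95% of all probe sets. The comparisons against DMSO share the 3 DMSO arrays, and both share arrays with the comparison between the inhibitors. An unadjusted p under 0.05 was reached by 4, 4 and 10 of the 24 in these comparisons, in the order given. The share of all probe sets at that unadjusted level was not counted, here or in later comparisons. These numbers are therefore no result about the members. The median difference over the 24 was 0.05 for 5SGlcNAc minus DMSO beside 0.01 over all probe sets, and 0.06 for 5SGlcNAc minus Thiamet-G beside 0.02. Because these are bulk samples, more cells with a transcript and more transcript per cell cannot be told apart.

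**Figure D1:**
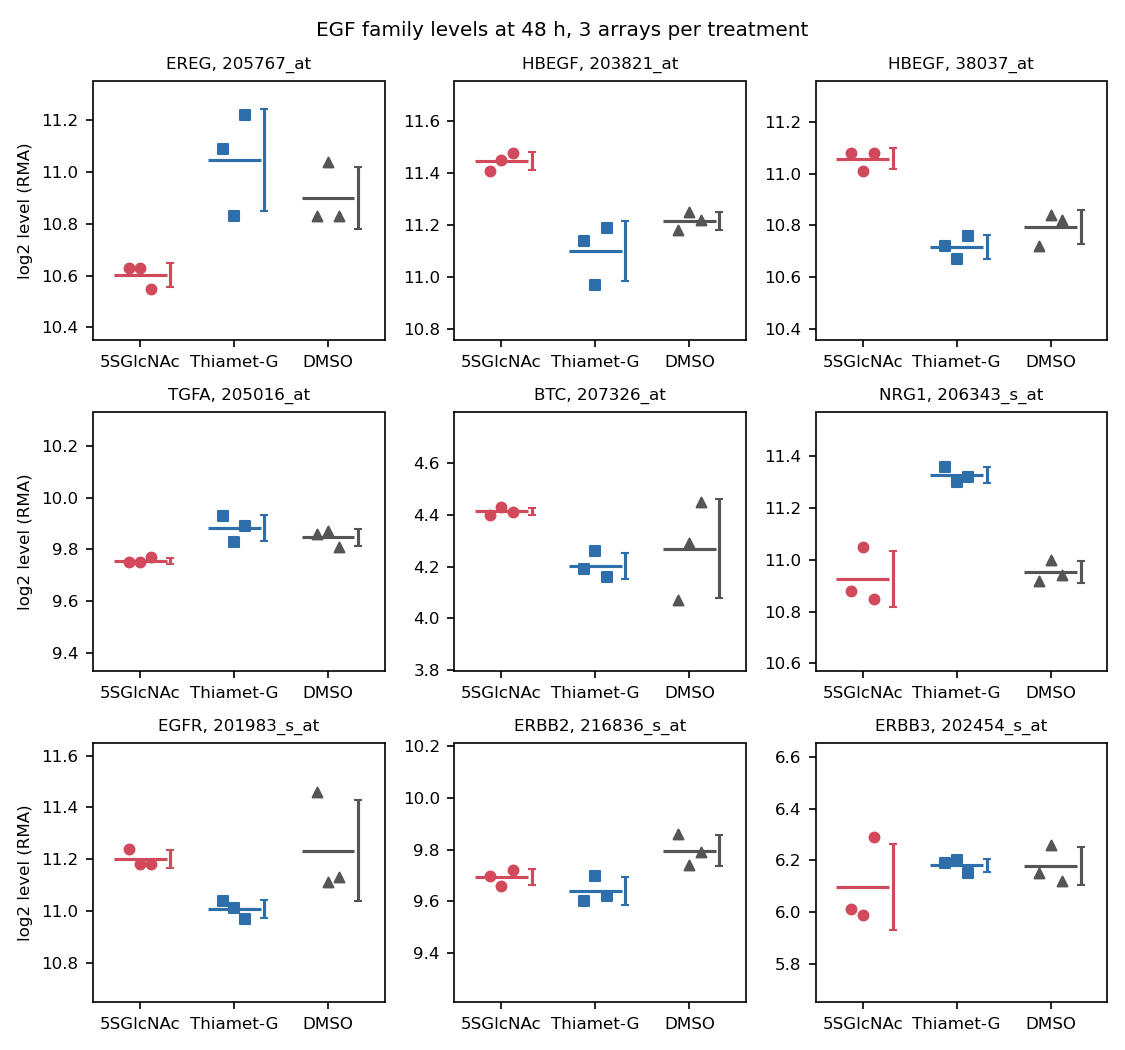
Log2 level (vertical axes, each spanning 1 unit around the mean of its panel) of 9 EGF family probe sets on the 48 h arrays, 3 per treatment. Points are arrays, horizontal lines are means and the bars beside them are 1 SD to each side; all 3 points of 5SGlcNAc lie above those of Thiamet-G and DMSO in both HBEGF panels, and all 3 of Thiamet-G lie above the rest in the NRG1 panel.

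HBEGF, a ligand of EGFR and ERBB4 that binds heparan sulphate, was measured by 2 bright probe sets and a dim one. The probe set 38037_at had log2 levels of 11.08, 11.01 and 11.08 after 5SGlcNAc, 10.72, 10.67 and 10.76 after Thiamet-G and 10.72, 10.84 and 10.82 after DMSO. The 5SGlcNAc arrays lay above all 6 others, while the Thiamet-G and DMSO arrays overlapped. The means were 11.06 ± 0.040 after 5SGlcNAc, 10.72 ± 0.045 after Thiamet-G and 10.79 ± 0.064 after DMSO (SD, n = 3 each). The difference between 5SGlcNAc and DMSO was 0.26 ± 0.050 (SE; adjusted p = 0.014, limma), or 1.20-fold. Between 5SGlcNAc and Thiamet-G it was 0.34 ± 0.050 (SE; adjusted p = 0.0034, limma), or 1.27-fold. The call against DMSO was lost without DMSO replicate 1 (adjusted p = 0.051) and without 5SGlcNAc replicate 1 (adjusted p = 0.0627).

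The second bright HBEGF probe set, 203821_at, gave log2 levels of 11.41, 11.45 and 11.48 after 5SGlcNAc, 11.14, 10.97 and 11.19 after Thiamet-G and 11.18, 11.25 and 11.22 after DMSO. Its 5SGlcNAc arrays again lay above all others. The difference was 0.23 between 5SGlcNAc and DMSO (adjusted p = 0.053, limma), which missed the threshold, and 0.35 between 5SGlcNAc and Thiamet-G (adjusted p = 0.00782, limma), which passed. For Thiamet-G minus DMSO the 95% interval was -0.25 to 0.02 for 203821_at and -0.19 to 0.04 for 38037_at. Over the 27 arrays, each set centred on its own mean, the 2 bright probe sets followed each other with a Pearson correlation of 0.948 and a Spearman correlation of 0.958, as a description of probe sets that read the same RNA. The dim probe set, 222076_at, ranged from 5.30 to 5.77 at 48 h and its groups overlapped in all 3 comparisons.

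EREG, a ligand of EGFR and ERBB4, had log2 levels of 10.63, 10.63 and 10.55 after 5SGlcNAc, 11.09, 10.83 and 11.22 after Thiamet-G and 10.83, 11.04 and 10.83 after DMSO. The 5SGlcNAc arrays lay below all 6 others, and the Thiamet-G arrays, the most spread of the groups, overlapped the DMSO arrays. The means were 10.60 ± 0.046 after 5SGlcNAc, 11.05 ± 0.20 after Thiamet-G and 10.90 ± 0.12 after DMSO (SD, n = 3 each). EREG was lower after 5SGlcNAc than after Thiamet-G by a difference of -0.44 ± 0.097 (SE; adjusted p = 0.0212, limma), or 0.74-fold. The difference between 5SGlcNAc and DMSO was -0.30 (adjusted p = 0.11, limma) and did not pass, and between Thiamet-G and DMSO it was 0.15, with a 95% interval of -0.07 to 0.36. The call between the inhibitors was lost when any 1 of these 6 arrays but Thiamet-G replicate 2 was left out, with adjusted p between 0.056 and 0.0777.

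NRG1, the ligand of ERBB3 and ERBB4, was measured by 6 probe sets that read different stretches of its many transcripts, and 1 of them, 206343_s_at, passed at 48 h. Its log2 levels were 10.88, 11.05 and 10.85 after 5SGlcNAc, 11.36, 11.30 and 11.32 after Thiamet-G and 10.92, 11.00 and 10.94 after DMSO. The Thiamet-G arrays lay above all 6 others, and the 5SGlcNAc and DMSO arrays overlapped. The means were 10.93 ± 0.11 after 5SGlcNAc, 11.33 ± 0.031 after Thiamet-G and 10.95 ± 0.042 after DMSO (SD, n = 3 each). The difference between Thiamet-G and DMSO was 0.37 ± 0.058 (SE; adjusted p = 0.0227, limma), or 1.30-fold, and that between 5SGlcNAc and Thiamet-G was -0.40 (adjusted p = 0.00333, limma). The call against DMSO was lost when the fit held only the arrays of those 2 groups (adjusted p = 0.0609) and when any 1 of 5 of these 6 arrays was left out, all but Thiamet-G replicate 2.

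The other 5 NRG1 probe sets did not pass at 48 h. Their differences between Thiamet-G and DMSO ran from -0.02 for 208232_x_at to 0.18 for 208241_at. The dim probe set 208241_at had a difference of -0.28 between 5SGlcNAc and Thiamet-G (adjusted p = 0.109, limma), and its arrays of these groups did not overlap. Across the 27 arrays, set-centred, the correlation of 206343_s_at with the other 5 probe sets ran from -0.28 for 208232_x_at to 0.66 for 206237_s_at. So the rise under Thiamet-G was measured at 48 h by 1 of 6 NRG1 probe sets.

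TGFA, a ligand of EGFR alone, had log2 levels of 9.75, 9.75 and 9.77 after 5SGlcNAc, 9.93, 9.83 and 9.89 after Thiamet-G and 9.86, 9.87 and 9.81 after DMSO in its bright probe set, 205016_at. The 5SGlcNAc arrays lay below all others, but the differences were small. They were -0.09 between 5SGlcNAc and DMSO (adjusted p = 0.265, limma) and -0.13 between 5SGlcNAc and Thiamet-G (adjusted p = 0.112, limma), neither of which passed. The other TGFA probe sets, 205015_s_at and 211258_s_at, had overlapping groups in all 3 comparisons. BTC, a ligand of EGFR and ERBB4, was dim, with 4.40, 4.43 and 4.41 after 5SGlcNAc, 4.19, 4.26 and 4.16 after Thiamet-G and 4.07, 4.29 and 4.45 after DMSO. The BTC arrays of both inhibitors lay within the range of the DMSO arrays. Those of 5SGlcNAc lay above those of Thiamet-G, by 0.21 (adjusted p = 0.163, limma), and no comparison passed.

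EGFR, the receptor of most of these ligands, had log2 levels of 11.24, 11.18 and 11.18 after 5SGlcNAc, 11.04, 11.01 and 10.97 after Thiamet-G and 11.46, 11.11 and 11.13 after DMSO in its brightest probe set, 201983_s_at. The Thiamet-G arrays lay below all others, and DMSO replicate 1 lay apart from the other DMSO arrays. The difference between Thiamet-G and DMSO was -0.23 (95% interval -0.42 to -0.04; adjusted p = 0.226, limma) and did not pass, and without DMSO replicate 1 it was -0.11. The next probe set, 201984_s_at, had 10.71, 10.68 and 10.68 after 5SGlcNAc, 10.59, 10.59 and 10.53 after Thiamet-G and 10.61, 10.41 and 10.62 after DMSO, and its difference between Thiamet-G and DMSO was 0.02, with a 95% interval of -0.11 to 0.16. The gap between Thiamet-G and DMSO in 201983_s_at was thus not measured in 201984_s_at. The dim 211607_x_at had a difference of -0.18 there, with a 95% interval of -0.37 to 0.002 (adjusted p = 0.304, limma). The differences of 210984_x_at, 211550_at and 211551_at were -0.02, 0.07 and 0.06. None of the 6 EGFR probe sets passed in any comparison between treatments.

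ERBB2, the receptor without a known ligand that pairs with the others, had log2 levels of 9.70, 9.66 and 9.72 after 5SGlcNAc, 9.60, 9.70 and 9.62 after Thiamet-G and 9.86, 9.74 and 9.79 after DMSO in 216836_s_at. The DMSO arrays lay above those of both inhibitors, with differences of -0.10 for 5SGlcNAc and -0.16 for Thiamet-G (adjusted p = 0.257 and 0.158, limma), which did not pass. The dim ERBB2 probe set, 210930_s_at, had a difference of 0.26 between 5SGlcNAc and Thiamet-G (adjusted p = 0.0994, limma). ERBB3, the kinase-impaired receptor for NRG1, was dim, with 6.01, 5.99 and 6.29 after 5SGlcNAc, 6.19, 6.20 and 6.15 after Thiamet-G and 6.15, 6.26 and 6.12 after DMSO in 202454_s_at. Its groups overlapped in all 3 comparisons, as did those of the other ERBB3 probe set.

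**Figure D2:**
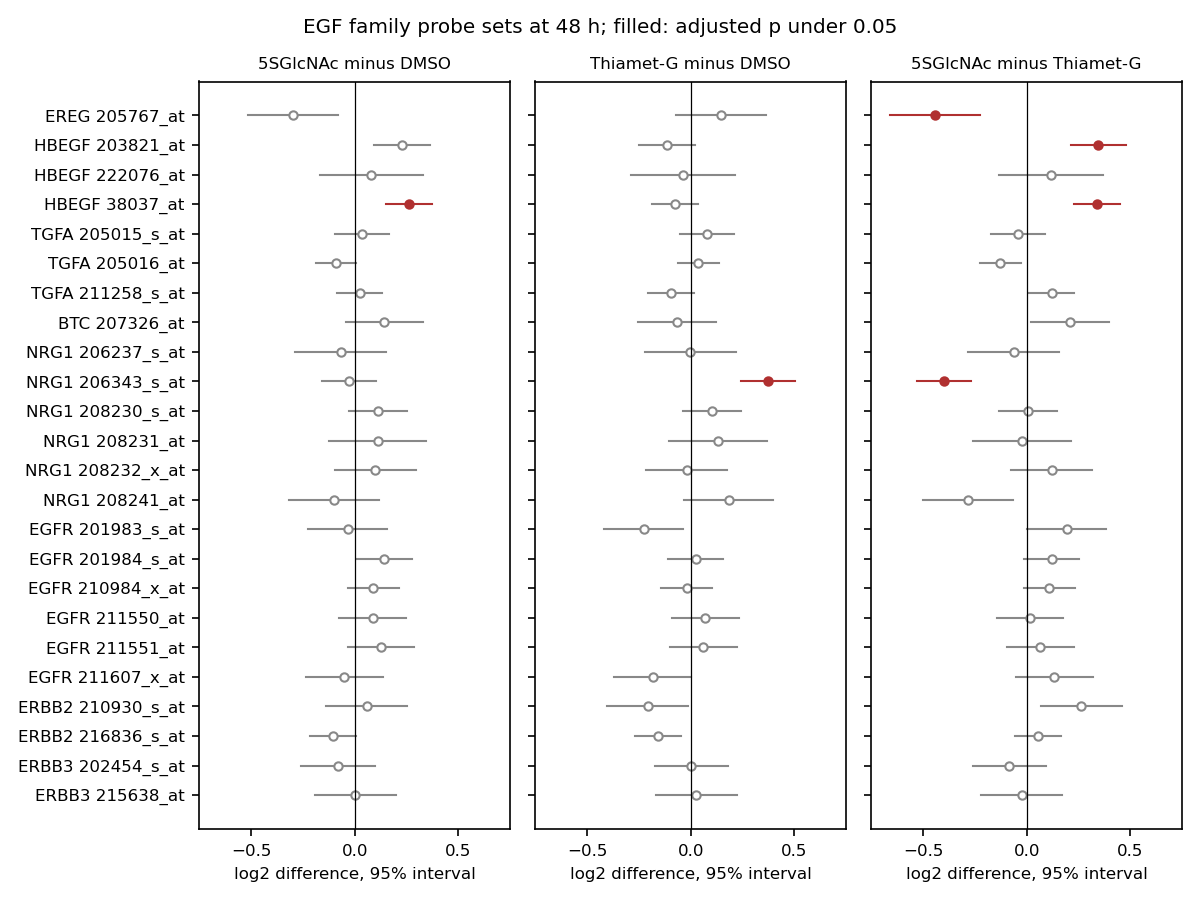
Log2 difference at 48 h (horizontal axes, lines are 95% intervals) for all 24 EGF family probe sets in the 3 comparisons between treatments, 3 arrays each. Filled red points passed at an adjusted p under 0.05: 1 probe set for 5SGlcNAc minus DMSO, 1 for Thiamet-G minus DMSO and 4 for 5SGlcNAc minus Thiamet-G.

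Counted without a test, the arrays of 5SGlcNAc and DMSO did not overlap for 6 of the 24 probe sets, 3 above and 3 below, beside 27.5% of all probe sets. For Thiamet-G and DMSO this held for 3, 1 above and 2 below, beside 18.9%. For 5SGlcNAc and Thiamet-G it held for 9, 5 above and 4 below, beside 25.6%. Marker genes of this line and of other cell types also moved in some of these comparisons. Of the 24 marker genes measured, KRT19 alone passed between 5SGlcNAc and DMSO, beside 6.1% of all genes lower and 2.17% higher. KRT19 was lower after 5SGlcNAc (-0.42 in log2, adjusted p = 0.0018, limma). Between 5SGlcNAc and Thiamet-G, CAV1, a basal marker of this line, was lower. So were CDH1, KRT19, EPCAM, LUM and LYZ, markers of other cell types. These differences ran from -0.95 for LUM to -0.25 for CAV1, beside 5.74% of all genes lower in that comparison. The mean log2 level of the 7 luminal markers lay between 8.55 and 8.57 on the 5SGlcNAc arrays, 8.73 and 8.75 on the Thiamet-G arrays and 8.71 and 8.73 on the DMSO arrays. That of the 6 fibroblast markers lay between 6.70 and 6.90 on the 5SGlcNAc arrays, 6.93 and 6.95 on the Thiamet-G arrays and 6.78 and 6.80 on the DMSO arrays, so the Thiamet-G arrays lay above all others. That of the 6 basal and mesenchymal markers lay between 13.72 and 13.76 on the 5SGlcNAc arrays, 13.79 and 13.83 on the Thiamet-G arrays and 13.80 and 13.82 on the DMSO arrays, and that of the 5 haematopoietic markers overlapped between all treatments. Their part in the EGF family differences was not tested.

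Over 2 to 24 h, with 1 array per treatment at each of 5 times, the question was the mean effect over the times, with time as a block. None of the 24 probe sets passed for 5SGlcNAc against DMSO or for Thiamet-G against DMSO, beside 0% of all probe sets in each. At an unadjusted p under 0.05 the numbers were 2 and 3. Between 5SGlcNAc and Thiamet-G none of the 24 passed, beside 0.0675% of all probe sets, and 4 reached an unadjusted p under 0.05. For these unadjusted numbers the shares of all probe sets were not counted. A difference of the same sign at all 5 times was found for 3 probe sets for 5SGlcNAc against DMSO beside 5.58% of all, and for 4 for Thiamet-G against DMSO beside 8.4%. For 5SGlcNAc against Thiamet-G it was found for 5, beside 13.3%.

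EREG had log2 levels at 0, 2, 4, 6, 8 and 24 h of 9.87, 9.54, 9.49, 9.85, 9.67 and 10.06 in the 5SGlcNAc series, 9.70, 9.91, 9.81, 9.92, 10.30 and 10.41 in the Thiamet-G series and 9.73, 9.54, 9.20, 9.87, 9.71 and 9.90 in the DMSO series. From 2 h on, the Thiamet-G array was the highest of the 3 at each time, by the smallest margin at 6 h. The mean difference between Thiamet-G and DMSO over 2 to 24 h was 0.43 ± 0.077 (SE; adjusted p = 0.296, limma), and that between 5SGlcNAc and DMSO was 0.08. The single differences between Thiamet-G and DMSO ran from 0.06 at 6 h to 0.61 at 4 h, after -0.02 at 0 h. The 2 arrays compared at 4 h had the widest 3′ to 5′ gap of ACTB, a sign of RNA quality given with its values for the change with time, and without 4 h the mean difference was 0.38.

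NRG1, in 206343_s_at, had log2 levels at the same times of 10.50, 10.42, 10.29, 9.95, 10.07 and 10.49 in the 5SGlcNAc series, 10.45, 10.62, 10.45, 10.31, 10.54 and 10.94 in the Thiamet-G series and 10.63, 10.53, 10.30, 9.99, 9.78 and 10.49 in the DMSO series. The Thiamet-G array was the highest at each time from 2 h on, as it was at 48 h. The mean difference between Thiamet-G and DMSO was 0.36 ± 0.079 (SE; adjusted p = 0.392, limma), and single differences ran from 0.09 at 2 h to 0.76 at 8 h. The dim NRG1 probe set 208241_at had a mean difference of 0.38 ± 0.067 between Thiamet-G and DMSO (SE; adjusted p = 0.296, limma), also higher at 5 of 5 times. It was picked for its small p in this comparison, so its direction is no separate support. The remaining NRG1 probe sets, 206237_s_at, 208230_s_at, 208231_at and 208232_x_at, were higher at 3, 4, 3 and 2 of 5 times. With a variance trend and robust estimation in limma, EREG and 206343_s_at passed for Thiamet-G against DMSO over 2 to 24 h. This was 1 of 11 alternatives for each, and neither passed in the other 10.

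**Figure D3:**
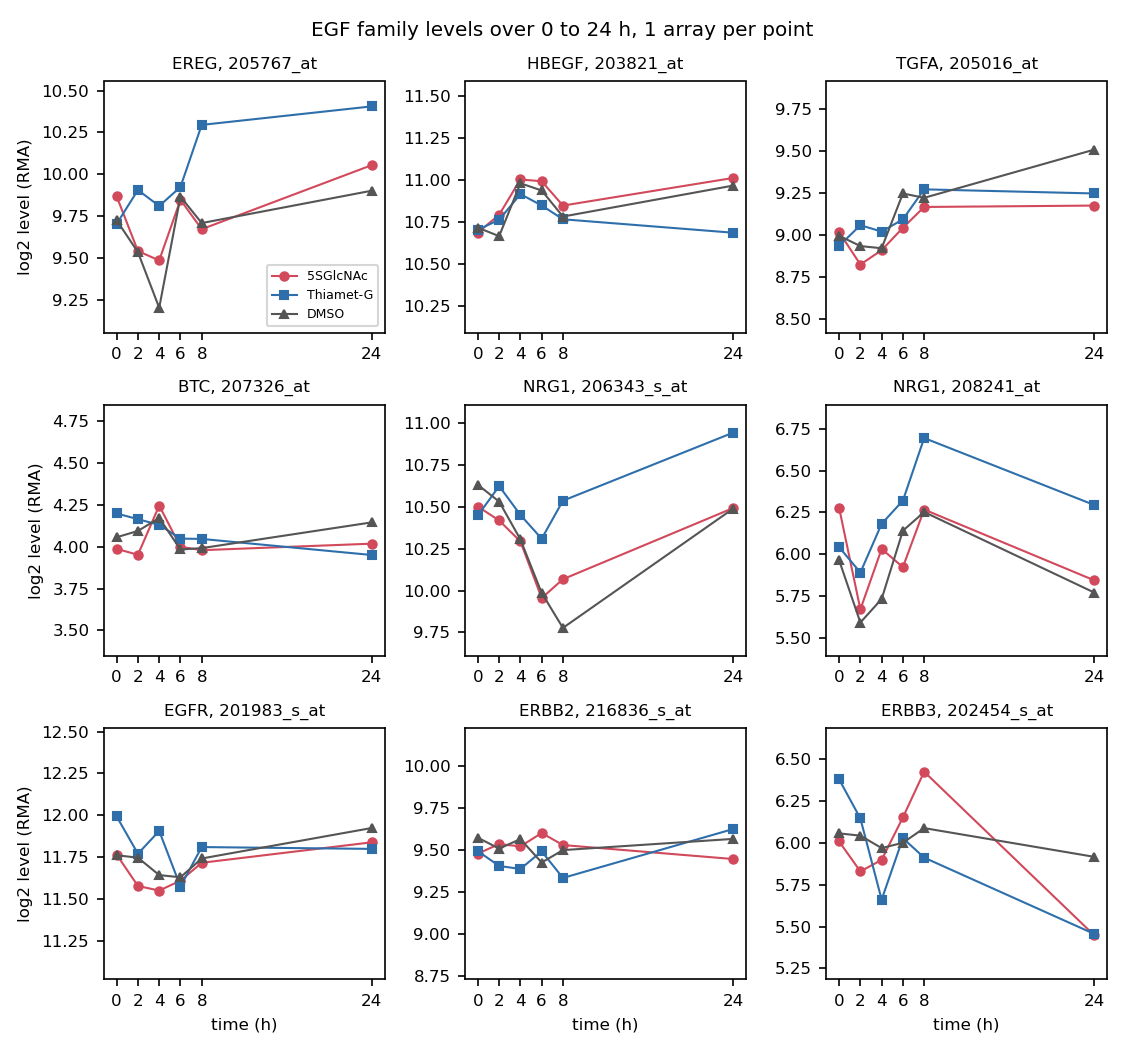
Log2 level (vertical axes, each spanning 1.5 units) against time in hours (linear axis) for 9 EGF family probe sets, with 1 array per point and lines joining the arrays of 1 treatment. From 2 h on, the Thiamet-G points are the highest of each time in the EREG and both NRG1 panels. The NRG1 panel of the dim 208241_at was picked among probe sets other than the brightest. The rule was the smallest p for Thiamet-G against DMSO over 2 to 24 h, so its order is no separate support.

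HBEGF, in 203821_at, had log2 levels at 0, 2, 4, 6, 8 and 24 h of 10.69, 10.79, 11.00, 10.99, 10.85 and 11.01 in the 5SGlcNAc series, 10.70, 10.76, 10.92, 10.85, 10.77 and 10.69 in the Thiamet-G series and 10.71, 10.66, 10.98, 10.94, 10.78 and 10.97 in the DMSO series. The levels of all series were higher at 4, 6 and 8 h than at 0 h, and at 24 h the Thiamet-G array lay below the other two. Its partner 38037_at had 10.21, 10.31, 10.45, 10.52, 10.39 and 10.60 in the 5SGlcNAc series, 10.21, 10.35, 10.44, 10.37, 10.29 and 10.20 in the Thiamet-G series and 10.25, 10.19, 10.56, 10.54, 10.28 and 10.42 in the DMSO series. The mean difference between 5SGlcNAc and DMSO over 2 to 24 h was 0.06 for 203821_at, with a 95% interval of -0.05 to 0.18, and 0.05 for 38037_at, with an interval of -0.09 to 0.20.

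Whether the effect at 48 h differed from that over 2 to 24 h was tested as a difference of effects, since levels of the 2 sets could not be compared. None of the 24 probe sets passed for 5SGlcNAc, beside 0.851% of all probe sets, or for Thiamet-G, beside 0.0045%. An unadjusted p under 0.05 was reached by 2 and 3, and the shares of all probe sets at that level were not counted. For HBEGF 38037_at, the effect of 5SGlcNAc at 48 h minus that over 2 to 24 h was 0.21, with a 95% interval of 0.02 to 0.40 (adjusted p = 0.378, limma). This probe set had passed against DMSO at 48 h. For the brighter HBEGF 203821_at it was 0.17, with an interval of -0.004 to 0.34 (adjusted p = 0.463, limma). For EREG it was -0.37, with an interval of -0.65 to -0.10 (adjusted p = 0.23, limma). The effect of Thiamet-G on NRG1 206343_s_at at 48 h minus that over 2 to 24 h was 0.02, with an interval of -0.22 to 0.25. The 3 with an unadjusted p under 0.05 for Thiamet-G were EREG, EGFR 201983_s_at and TGFA 211258_s_at. Their differences of effects were -0.28, -0.26 and -0.20 (adjusted p = 0.821, 0.746 and 0.826, limma).

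**Figure D4:**
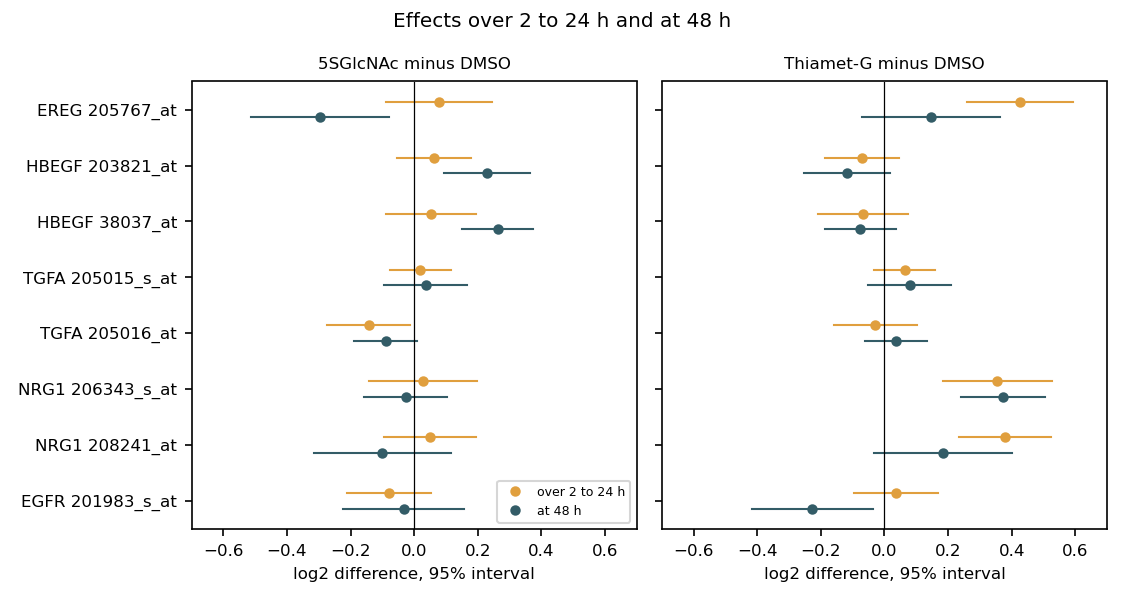
Log2 difference from DMSO (horizontal axes) for the 8 EGF family probe sets that passed at 48 h or had 1 sign at all 5 times against DMSO, over 2 to 24 h (orange, 5 times with 1 array per treatment) and at 48 h (dark, 3 arrays per treatment). The probe sets were picked by these same differences, so the sizes and directions that picked them are no separate support. Points are limma estimates and lines 95% intervals; for NRG1 206343_s_at under Thiamet-G the 2 estimates are 0.36 over 2 to 24 h and 0.37 at 48 h.

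Levels at each time were also tested against 0 h over all series together, with the 3 treatment series standing in for replicates. Of the 24 probe sets, none passed at 2 h beside 0.405% of all probe sets, 1 at 4 h beside 2.29%, none at 6 h beside 2.85%, none at 8 h beside 4.22% and 2 at 24 h beside 7.33%. The 1 at 4 h is 4.17% of the members and the 2 at 24 h are 8.33%, so the members passed about as often as all probe sets at these times, and no call at either time was left when any 1 series was left out. An unadjusted p under 0.05 was reached by 1, 7, 6, 5 and 5 at the 5 times, and the shares of all probe sets at that level were not counted.

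TGFA, in 205016_at, had log2 levels at 0, 2, 4, 6, 8 and 24 h of 9.02, 8.82, 8.91, 9.04, 9.17 and 9.18 in the 5SGlcNAc series, 8.93, 9.06, 9.02, 9.09, 9.27 and 9.25 in the Thiamet-G series and 8.995, 8.93, 8.92, 9.25, 9.22 and 9.51 in the DMSO series. All 3 series were higher at 24 h than at 0 h, by 0.16 to 0.51. The mean rise was 0.33 ± 0.077 (SE; adjusted p = 0.0178, limma), or 1.26-fold, and the call was lost when any 1 series was left out, with estimates between 0.24 and 0.41. EREG was 0.35 higher at 24 h than at 0 h (adjusted p = 0.0905, limma), in 3 of 3 series, without passing, and without the Thiamet-G series the estimate was 0.18. HBEGF 203821_at was 0.27 higher at 4 h than at 0 h (adjusted p = 0.0539, limma), also in 3 of 3 series and without passing.

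The NRG1 probe set 208230_s_at had log2 levels at 0, 2, 4, 6, 8 and 24 h of 7.29, 7.41, 6.96, 7.20, 7.15 and 7.16 in the 5SGlcNAc series, 7.36, 7.28, 6.92, 7.03, 7.05 and 7.22 in the Thiamet-G series and 7.22, 7.17, 7.05, 6.93, 6.91 and 7.17 in the DMSO series. It was lower at 4 h than at 0 h in all 3 series, by a mean difference of -0.31 ± 0.073 (SE; adjusted p = 0.0356, limma). The DMSO and Thiamet-G arrays of 4 h had the widest gap between the 3′ and 5′ probe sets of ACTB, a sign of RNA quality, at 1.64 and 1.24 log2 units, while the other arrays of 0 to 24 h lay between 0.42 and 0.949. Without these 2 arrays the difference of 208230_s_at was -0.40 (adjusted p = 0.187, limma) and did not pass. The brightest NRG1 probe set, 206343_s_at, was lower at 6 h than at 0 h by -0.44 (adjusted p = 0.0624, limma), without passing.

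ERBB3, in the dim probe set 202454_s_at, had log2 levels at 0, 2, 4, 6, 8 and 24 h of 6.01, 5.83, 5.90, 6.15, 6.43 and 5.45 in the 5SGlcNAc series, 6.38, 6.15, 5.66, 6.03, 5.91 and 5.46 in the Thiamet-G series and 6.06, 6.04, 5.97, 6.00, 6.09 and 5.92 in the DMSO series. All 3 series were lower at 24 h than at 0 h, the DMSO series by 0.14 and the Thiamet-G series by 0.92. The mean difference was -0.54 ± 0.15 (SE; adjusted p = 0.0411, limma), and it was not past the threshold without the 2 arrays of 4 h just named (adjusted p = 0.0568) or when any 1 series was left out, with an estimate of -0.35 without the Thiamet-G series. The other ERBB3 probe set, 215638_at, differed by 0.06, with a 95% interval of -0.20 to 0.31.

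EGFR 201983_s_at had log2 levels at 0, 2, 4, 6, 8 and 24 h of 11.76, 11.58, 11.55, 11.61, 11.72 and 11.84 in the 5SGlcNAc series, 11.99, 11.77, 11.91, 11.57, 11.81 and 11.80 in the Thiamet-G series and 11.76, 11.75, 11.64, 11.63, 11.74 and 11.92 in the DMSO series. It was lower at 6 h than at 0 h by -0.24 (adjusted p = 0.122, limma) without passing, and by -0.14 without the Thiamet-G series. ERBB2 216836_s_at had 9.48, 9.54, 9.52, 9.60, 9.53 and 9.45 in the 5SGlcNAc series, 9.49, 9.40, 9.39, 9.49, 9.33 and 9.62 in the Thiamet-G series and 9.57, 9.51, 9.56, 9.43, 9.50 and 9.57 in the DMSO series, all between 9.33 and 9.62. BTC had 3.99, 3.95, 4.25, 4.00, 3.98 and 4.02 in the 5SGlcNAc series, 4.20, 4.16, 4.13, 4.05, 4.05 and 3.95 in the Thiamet-G series and 4.06, 4.09, 4.17, 3.98, 3.99 and 4.15 in the DMSO series. Neither ERBB2 216836_s_at nor BTC passed at any time, and their series crossed.

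The genes most like HBEGF and NRG1, the 2 with a probe set past the threshold against DMSO, were found by the Pearson correlation of brightest probe sets over all 27 arrays, each set centred on its own mean, among 11963 genes. For HBEGF they were TENT4A (0.808), GCLC (0.789), which makes the catalytic subunit of the first enzyme of glutathione synthesis, and DCUN1D2 (0.783). For NRG1 they were EPB41L4B (0.871), EIF2B2 (0.840), a subunit of a translation initiation factor, and ELOVL6 (0.834), a fatty acid elongase. These correlations describe arrays that share treatments and times.

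The transcripts that EGFR and ERK signalling are known to induce were taken as a list of 20 genes, 19 of them measured by a probe set of 1 gene, with the brightest probe set for each. The list was chosen with earlier results of these data known, and its counts are a description. At 48 h after 5SGlcNAc, 8 of the 19 were lower than after DMSO beside 6.1% of all 11963 genes, and 2 were higher beside 2.17%. SPRY1, which encodes a Sprouty inhibitor of RAS to ERK signalling, was lower by a log2 difference of -0.60 (adjusted p = 0.000521, limma). DUSP4, an ERK phosphatase, differed by -0.47, and the second Sprouty gene past the threshold, SPRY4, by -0.28. The others lower were DUSP6, ETV4, SPRY2, IER3 and PHLDA1, with differences of -0.35 to -0.23. EGR1, an early transcription factor, was 0.21 higher and DUSP1, a phosphatase of MAP kinases, 0.22 higher. Their second probe sets did not pass, at 0.06 for EGR1 and 0.18 for DUSP1 (adjusted p = 0.719 and 0.268, limma). The median difference over the 19 was -0.10 beside 0.01 over all genes. Without 5SGlcNAc replicate 1, 5 of the 19 passed, and without DMSO replicate 1, 6 passed, all lower, so the calls of EGR1 and DUSP1 were lost.

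After Thiamet-G, none of the 19 was lower than after DMSO beside 1.98% of all genes, and 2 were higher beside 0.251%, EGR1 by 0.36 and DUSP1 by 0.31 (adjusted p = 0.0175 and 0.0214, limma). The second probe sets, at 0.27 for EGR1 and 0.14 for DUSP1 (adjusted p = 0.153 and 0.474, limma), did not pass. Both calls were lost when the fit held only the arrays of these 2 groups, and when any 1 of these 6 arrays but Thiamet-G replicate 2 was left out. Between 5SGlcNAc and Thiamet-G, 7 were lower beside 5.74% of all genes and none higher beside 5.26%, led by SPRY1 at -0.69, DUSP4 at -0.49 and DUSP6 at -0.44. Over 2 to 24 h, SPRY1 was lower under 5SGlcNAc than under Thiamet-G by -0.55 (adjusted p = 0.0446, limma), the 1 gene of the 19 to pass in a treatment comparison there, beside 0.1% of all genes. The median over the 19 at 48 h was 0.01 for Thiamet-G minus DMSO beside -0.01 over all genes, and -0.15 for 5SGlcNAc minus Thiamet-G beside 0.02.

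**Figure D5:**
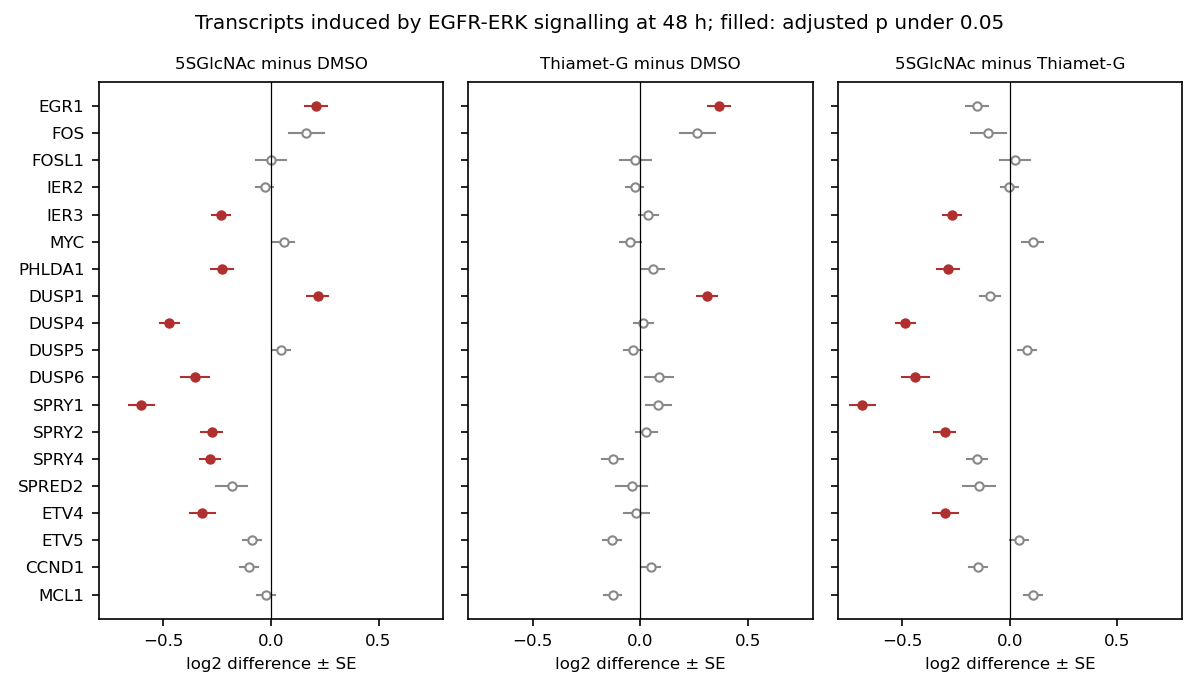
Log2 difference at 48 h (horizontal axes, lines are 1 SE to each side) for 19 transcripts known to be induced by EGFR and ERK signalling, 3 arrays per treatment. Filled red points passed at an adjusted p under 0.05: 8 lower and 2 higher for 5SGlcNAc minus DMSO, 2 higher for Thiamet-G minus DMSO and 7 lower for 5SGlcNAc minus Thiamet-G.

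With time, EGR1 was 1.79 higher and FOS 1.95 higher at 2 h than at 0 h, while MYC differed by -0.64, DUSP4 by -0.65, DUSP5 by -0.46 and SPRY2 by -0.42, all past the threshold beside 0.426% of all genes in either direction. EGR1 was still 1.54 higher at 4 h, when 3 of the 19 passed higher and 0 lower, beside 2.58% of all genes in either direction. At 6 h EGR1 was 1.03 higher, when 1 of the 19 passed higher and 1 lower, beside 3.38%. At 8 h EGR1 was 0.75 higher, when 1 passed higher and 2 lower, beside 5.08%. At 24 h SPRY2 differed by -0.40 and DUSP5 by 0.53 beside 8.46%. None of the 24 EGF family probe sets had passed at 2 h, when these early transcripts had.

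The proteases and helpers that shed the ligand precursors formed a list of 10 genes, all measured. At 48 h after 5SGlcNAc, 3 were lower than after DMSO beside 6.1% of all genes, and none was higher. ADAM8, a metalloprotease, differed by -0.56 (adjusted p = 0.00163, limma), TIMP3, an inhibitor of ADAM17, by -0.51 (adjusted p = 0.00271, limma) and ADAM19, a metalloprotease known to cut NRG1, by -0.20 (adjusted p = 0.0304, limma). The list thus held both a protease and an inhibitor of proteases among the genes that were lower. The dimmer ADAM19 probe set differed by 0.06 (adjusted p = 0.749, limma) and the dimmer ADAM8 probe set by -0.17 (adjusted p = 0.185, limma), and neither passed. Between 5SGlcNAc and Thiamet-G that ADAM8 probe set differed by -0.09 (adjusted p = 0.491, limma). After Thiamet-G none of the 10 passed against DMSO, beside 1.98% of all genes lower and 0.251% higher. Between 5SGlcNAc and Thiamet-G 2 were lower beside 5.74% of all genes, TIMP3 by -0.57 and ADAM8 by -0.56. ADAM17 and ADAM10, the main sheddases of these ligands, did not pass in any comparison between treatments. The median over the 10 was -0.11 for 5SGlcNAc minus DMSO beside 0.01 over all genes.

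Of 14 measured genes of receptor inhibition and turnover, none passed against DMSO, and RNF41, a ubiquitin ligase of ERBB3, was 0.19 higher after 5SGlcNAc than after Thiamet-G. This 1 gene of 14 stands beside 5.26% of all genes higher in that comparison, a share near it. Of 8 measured genes of the PI3K and PLC-gamma branch, PIK3R1, the regulatory subunit of PI3K, was 0.21 higher in that comparison, the 1 gene of 8 to pass beside the same 5.26%, and none passed against DMSO. The 2 other PIK3R1 probe sets differed by 0.14 and 0.11 there (adjusted p = 0.339 and 0.566, limma) and did not pass. The dimmer RNF41 probe set was 0.29 higher after 5SGlcNAc than after Thiamet-G (adjusted p = 0.0347, limma) and passed. The calls of the brightest RNF41 and PIK3R1 probe sets were lost when the fit held only the arrays of those 2 groups. Both were also lost without any 1 of the 5SGlcNAc arrays or without Thiamet-G replicate 1. The dimmer RNF41 probe set was not followed through these alternatives. PIK3R1 was also higher at 4, 6, 8 and 24 h than at 0 h, by 0.32 to 0.43, the 1 gene of its 8 to pass at each time beside 2.58%, 3.38%, 5.08% and 8.46% of all genes. None of 12 measured adaptor and RAS to ERK genes, and none of 3 measured genes of the other ligands and ERBB4, passed in a comparison between treatments. At 24 h, 3 of the 12 adaptor and RAS to ERK genes passed against 0 h beside 8.46% of all genes. GRB2, the adaptor that brings SOS to the receptors, was 0.22 higher than at 0 h, MAP2K1 0.21 higher and ARAF different by -0.25.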

How the data were processed

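RNA of 27 samples was measured on human Affymetrix arrays. The deposited values are log2 levels per probe set, which the authors made with RMA (version not given in the sources used here), as listed per the submitters' processing notes. Because RMA equalises arrays processed together, a shift of most genes in 1 direction would not show. The file held 22277 probe sets, of which 62 controls were left out. Symbols came from the platform annotation and were updated through Entrez identifiers for 19052 probe sets; 19064 named 1 gene, 1043 several and 2108 none. Groups were taken from the sample titles.

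Two-sided tests were run with limma 3.58.1 (R 4.3.3; functions lmFit and eBayes) on all 22215 probe sets, with no filter on dim values, and p-values were adjusted over all of them by Benjamini-Hochberg, with a threshold of 0.05. The 48 h fit held 9 arrays, the fit over 2 to 24 h held 15 with time as a block, and the time fit held 18 with the treatment series as a block. The difference of effects used the 24 arrays of 2 to 48 h. Standard errors of log2 differences had a median of 0.0668 at 48 h, 0.0666 over 2 to 24 h and 0.085 for time. On simulated data with 200 of 22215 probe sets changed, the fit of 5SGlcNAc against DMSO at 48 h recovered 35.8% of changes of 0.3 log2 units and 82.1% of 0.6, with 9.38% of its calls false. The simulation was run once. In the measured data 1489 probe sets passed in this comparison, so recovery there can differ from these shares.

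The genes of interest and the lists were chosen with earlier results of these data known. Array values are given for probe sets that passed between treatments and for the brightest probe set of each other gene. Lists used the brightest probe set of each gene, and their genes with the smallest p were named. A few further probe sets and list genes were named after their values were seen. Replicate numbers at 48 h did not pair the arrays, as the deviations of arrays of the same number correlated between -0.285 and 0.163 over 9 pairs. Alternatives changed the normalization, the filter, the variance model, the arrays in the fit, the block and the probe sets, and left out each array or series in turn.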

Additional observations from a re-analysis of the deposited data

Results flagged for a closer look

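For 3 genes of the pathway lists, none of them a ligand or receptor of the EGF family, the effect of 5SGlcNAc against DMSO at 48 h differed from its effect over 2 to 24 h by a test of the difference itself (limma, across all probe sets). For TIMP3, the inhibitor of ADAM17, the effect was -0.51 at 48 h and 0.06 over 2 to 24 h, a difference of -0.57 (adjusted p = 0.0253). For ADAM8, a metalloprotease, it was -0.56 at 48 h and -0.08 over 2 to 24 h, a difference of -0.48 (adjusted p = 0.0394), while the dimmer ADAM8 probe set gave a difference of 0.05. For DUSP4, an ERK phosphatase, it was -0.47 at 48 h and -0.07 over 2 to 24 h, a difference of -0.41 (adjusted p = 0.0149). The dimmer DUSP4 probe set gave a difference of -0.51 (adjusted p = 0.00987, limma). Such a difference was tested for 22215 probe sets, of which 0.851% passed.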

How the results depend on the processing

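Each count of the 24 EGF family probe sets past the threshold was recomputed under each alternative, and no difference reversed its sign past the threshold. For 5SGlcNAc against DMSO at 48 h, where 1 passed, 2 passed with quantile normalization, with median centring, without dim probe sets and with only the arrays of the 2 groups, and 3 with a variance trend and robust estimation, which added EREG. Leaving out 1 array gave 0 to 1, with 0 without DMSO replicate 1 or without 5SGlcNAc replicate 1. For Thiamet-G against DMSO at 48 h, where 1 passed, 0 passed with only the arrays of the 2 groups, and leaving out 1 array gave 0 to 1. With the replicate number as a block, 0 passed for Thiamet-G against DMSO and 1 for 5SGlcNAc against DMSO. The labels give the numbers no meaning beyond naming arrays. For 5SGlcNAc against Thiamet-G at 48 h, where 4 passed, leaving out 1 array gave 3 to 4. Over 2 to 24 h, where none passed, a variance trend and robust estimation gave 2 for Thiamet-G against DMSO, EREG and NRG1 206343_s_at higher, and 2 for 5SGlcNAc against Thiamet-G. Against 0 h, quantile normalization gave 2 at 4 h, 1 at 6 h and 1 at 8 h, and leaving out dim probe sets gave 2, 5 and 3 at these times, in place of 1, 0 and 0. Without the DMSO array of 4 h, 1 passed at 8 h. Without the DMSO and Thiamet-G arrays of 4 h, an alternative chosen after seeing the data, 0 passed at 4 h and 1 at 24 h. Leaving out 1 treatment series gave 0 at 4 h, 0 at 24 h and 0 to 1 at 6 h. Of the list counts between 5SGlcNAc and Thiamet-G at 48 h, the ERK-induced genes went to 11 with a variance trend and robust estimation in place of 7, the shedding genes to 4 without Thiamet-G replicate 2 in place of 2, and the receptor inhibitors to 0 to 3 in place of 1. The other 93 recomputed counts of EGF family probe sets stayed within 1.5 times the reported ones. The cause of these shifts was not tested, apart from the fewer probe sets or arrays that an alternative holds by its construction. HBEGF 38037_at passed against DMSO in 11 of its 13 alternatives, and both HBEGF probe sets and NRG1 206343_s_at passed between the inhibitors in all alternatives run. EREG passed between the inhibitors in 8 of its 14, and was lost with the replicate number as a block (adjusted p = 0.0577) and in 5 of the 6 fits that left out 1 array. The 11 probe sets under the 40th percentile at 48 h are limited by signal over background, which the deposited values do not give.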
